A study of Homo sapiens with 8 samples.

Results

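The H/ACA box small nucleolar RNAs, whose genes carry SNORA symbols, and the small Cajal body RNAs, whose genes carry SCARNA symbols, were followed through a selective ribosome profiling experiment on the chaperonin TRiC and its partner prefoldin (PFD). Members were all genes with a symbol made of SNORA or SCARNA followed by a digit that held at least 50 counts summed over the 8 libraries. This rule gave 62 members, 50 SNORA and 12 SCARNA genes, of 239 genes so named and of 60664 genes counted. Another 39 of the 239 genes had 1 to 49 counts and 138 had none. SCARNA23, with 53 counts, was the member nearest to the limit, and SNORA63C, with 44, was the nearest gene outside it.

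All libraries came from U-2 OS, a cell line of human osteosarcoma, with the HaloTag knocked in by CRISPR–Cas9. In the TRiC line, a single clone, the tag sits in a loop of the TRiC subunit CCT4, and in the PFD line it sits at the C terminus of the prefoldin subunit PFDN4. In every group cells were treated with cycloheximide, which arrests elongating ribosomes, at 100 µg per ml for 1 min, and crosslinked with DSP at 2 mM for 30 min. After digestion with RNase I the lysates were pelleted through a sucrose cushion, and the pellet was sequenced directly (input, 2 replicates per line) or after pulldown on HaloTag beads (pulldown, 2 replicates per line). The comparison of pulldown with input asks which RNA fragments come down with each tagged chaperone. No library from untagged cells was analysed here. The labels do not say whether replicates came from separate cultures. The study calls them biological replicates, and p-values measure the spread between them.

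H/ACA RNAs fold into a pair of hairpins joined by a hinge that holds the H box, and end in a tail with the ACA box. With the proteins dyskerin (DKC1), NHP2, NOP10 and GAR1 they form particles that turn chosen uridines of ribosomal RNA into pseudouridine in the nucleolus. Their Cajal body relatives guide the modification of spliceosomal small nuclear RNAs, and some of them carry C/D domains in place of, or beside, the H/ACA fold. Most are cut from the introns of host transcripts, and they are not translated. A count on a member is thus a read assigned to that gene, which has no coding sequence of its own. Whether such a read came from the mature RNA was not tested.

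A few sequences show what was counted. SNORA15 (ENSG00000207168, chr7:56060470-56060602, plus strand) lies in CCT6A, the gene of a TRiC subunit, and had the largest rise in the TRiC pulldown. SNORA65 (ENSG00000201302, chr9:127448501-127448630, minus strand) is an abundant member within the ribosomal protein gene RPL12. SCARNA21 (ENSG00000252835, chr17:7906122-7906260, plus strand) had the largest fitted rise of the tested Cajal body members in the TRiC pulldown, from few input counts. SNORA74D (ENSG00000252213, chr5:139276180-139276320, plus strand) drew the most counts of all members. Positions are on hg38, from GENCODE release 44, and the sequences are the genome's DNA letters, 5′ to 3′ along the RNA. Capitals mark a match to the H box pattern ANANNA in the middle of the gene and an ACA that stands 3 bases from the 3′ end.
SNORA15: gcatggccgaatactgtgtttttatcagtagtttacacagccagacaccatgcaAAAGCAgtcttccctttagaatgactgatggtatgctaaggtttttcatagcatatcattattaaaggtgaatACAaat
SNORA65: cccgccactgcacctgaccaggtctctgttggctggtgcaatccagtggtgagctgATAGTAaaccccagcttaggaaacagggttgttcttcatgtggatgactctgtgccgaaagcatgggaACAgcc
SCARNA21: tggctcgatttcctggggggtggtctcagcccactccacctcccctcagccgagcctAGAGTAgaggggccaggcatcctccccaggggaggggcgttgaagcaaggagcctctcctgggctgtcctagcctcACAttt
SNORA74D: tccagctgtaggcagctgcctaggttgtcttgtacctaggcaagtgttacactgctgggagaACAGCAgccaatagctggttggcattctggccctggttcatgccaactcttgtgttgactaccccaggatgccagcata

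SNORA15, SNORA65 and SCARNA21 held both marks and SNORA74D only the H box pattern. Over the 62 members the H box pattern occurred in the middle of 57 (91.9%), against 56.5% of stretches of the same length just upstream of the genes. The ACA stood 3 bases from the 3′ end of 43 members (69.4%) and at that place in none of the upstream stretches. Member length ran from 123 to 330 bases with a median of 135, and the median GC content was 47.8% (32.8 to 64.0%). A match is a description of the letters and not a mapped box.

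The libraries held between 9523128 and 32637658 counts. Depth and spread differed between the lines: the common dispersion estimated by edgeR was 0.0153 over the TRiC libraries and 0.331 over the PFD libraries. Between 1 and 2 members had no count in a TRiC library, whereas 10 and 17 had none in the PFD inputs and 23 and 9 had none in the PFD pulldowns, of which the first replicate was the shallowest library of all. Of the U-2 OS markers, RUNX2 held 613 to 1920 counts per library and COL1A1 at least 45087, while COL1A2 held 1 to 66 and ALPL 62 to 811. The osteoblast lineage genes SP7 and BGLAP held at most 8 and 24.

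Members made up a larger share of the TRiC pulldowns than of the TRiC inputs. In the TRiC line they drew 510 and 374 of every 1000000 counts (ppm) in the inputs and 1137 and 1237 ppm in the pulldowns. The group means were 442 ± 96.0 and 1187 ± 70.7 (SD, n = 2), a ratio of 2.68. The PFD line had shares of 733 and 728 ppm in the inputs and 929 and 748 ppm in the pulldowns, with means of 730 ± 3.96 and 839 ± 128 (SD, n = 2) and a ratio of 1.15. The groups did not overlap in either line, although the second PFD pulldown lay close to its inputs. With 2 libraries against 2 no exact permutation test of such a share can reach 0.05. C/D box RNAs, the other large class of small nucleolar RNAs (SNORD genes, 52 with at least 50 counts), rose from 1181 and 1151 to 2444 and 2431 ppm in the TRiC line and stood at 1186 and 1021 in the PFD inputs against 1484 and 1369 in the PFD pulldowns.

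**Figure D1:**
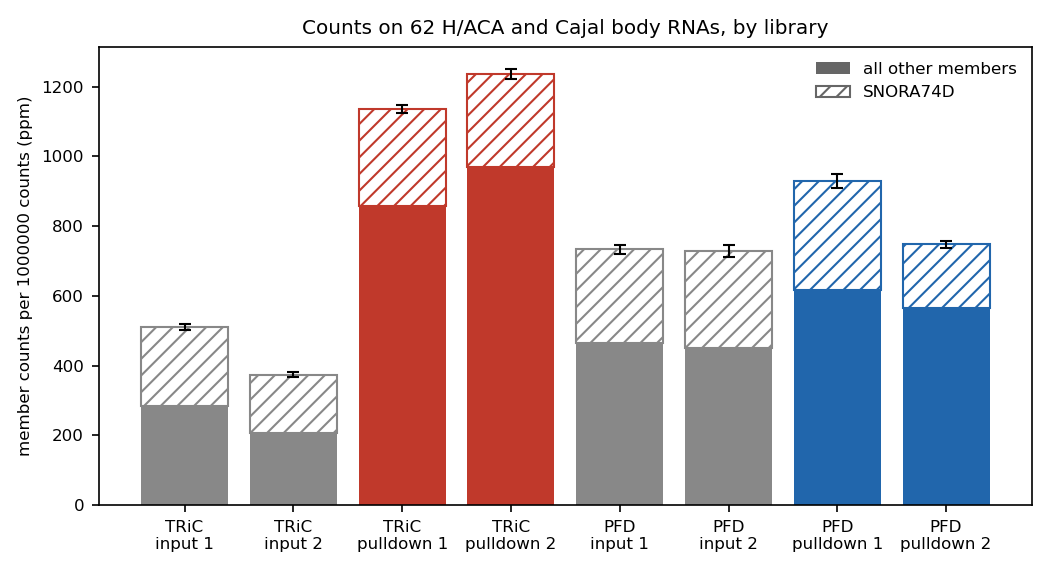
Counts on the 62 members per 1000000 counts (ppm) in each of the 8 libraries, split into SNORA74D (hatched) and all other members (filled), with exact Clopper-Pearson 95% intervals for counting error (bars). The TRiC pulldowns stand at 1137 and 1237 ppm and the TRiC inputs at 510 and 374, and SNORA74D takes 44.2% and 44.5% of the member counts in those inputs and 24.6% and 21.6% in those pulldowns.

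SNORA74D drew the most counts of all members in all 8 libraries, and per length it also led. The mean level in the TRiC inputs was 1418 counts per 1000000 counts (CPM) per 1000 bases for SNORA74D, 318 for SNORA65, 143 for SCARNA10 and 141 for SNORA28. Because SNORA74D rose less than most members, the ratio of the members' share in the TRiC line was 3.71 without it. The same ratio was 1.29 in the PFD line.

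Most members rose in the TRiC pulldown and none fell. Of 60 members that passed the filter on low counts, 41 (68.3%) were higher in the pulldown at an adjusted p under 0.05 by edgeR's quasi-likelihood test, against 8.64% of all 17934 genes tested. No member was lower, against 10.6% of all genes, and no member was lower at an unadjusted p under 0.05 either, while 45 were higher at that level. DESeq2 called 38 members higher and none lower. Members with few input counts could pass the filter through the pulldowns, and the 41 include such members. With at least 10 counts required in every TRiC library, 35 of 42 tested members were called higher by edgeR and none lower. The median log2 fold change was 1.98, or 3.93-fold, with quartiles of 1.38 and 2.57, and every fitted value lay above 0, from 0.04 for SNORA30 to 5.00 for SNORA15. Over all genes tested the median was -0.0032 and 49.7% lay above 0. Both pulldowns exceeded both inputs for 51 of the 60 members (85.0%), against 29.3% of all genes, and both lay below for none, against 31.2%. When all 8 libraries shared 1 fit, and with it the wider spread of the PFD libraries, 5 members were called.

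Of the 26 members with a mean of at least 100 counts over the TRiC libraries, 25 were called, and of the 34 tested members below that mean, 16 were called. Members with few counts could pass the filter through the group where they were high, so the size of their values is not compared here. The SNORA members had a median of 2.08 and 35 of 49 were called, and the SCARNA members a median of 1.56 with 6 of 11 called. For comparison, the median was 1.11 for SNORD genes (17 of 47 higher and 1 lower), 1.20 for small nuclear RNA genes (51 of 139 higher and 5 lower), 0.57 for long non-coding RNA genes and -0.03 for protein-coding genes. Members and SNORD genes needed at least 50 summed counts, and the other classes had no such limit. All these medians can include genes that passed the filter through the pulldowns, so they are description only.

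**Figure D2:**
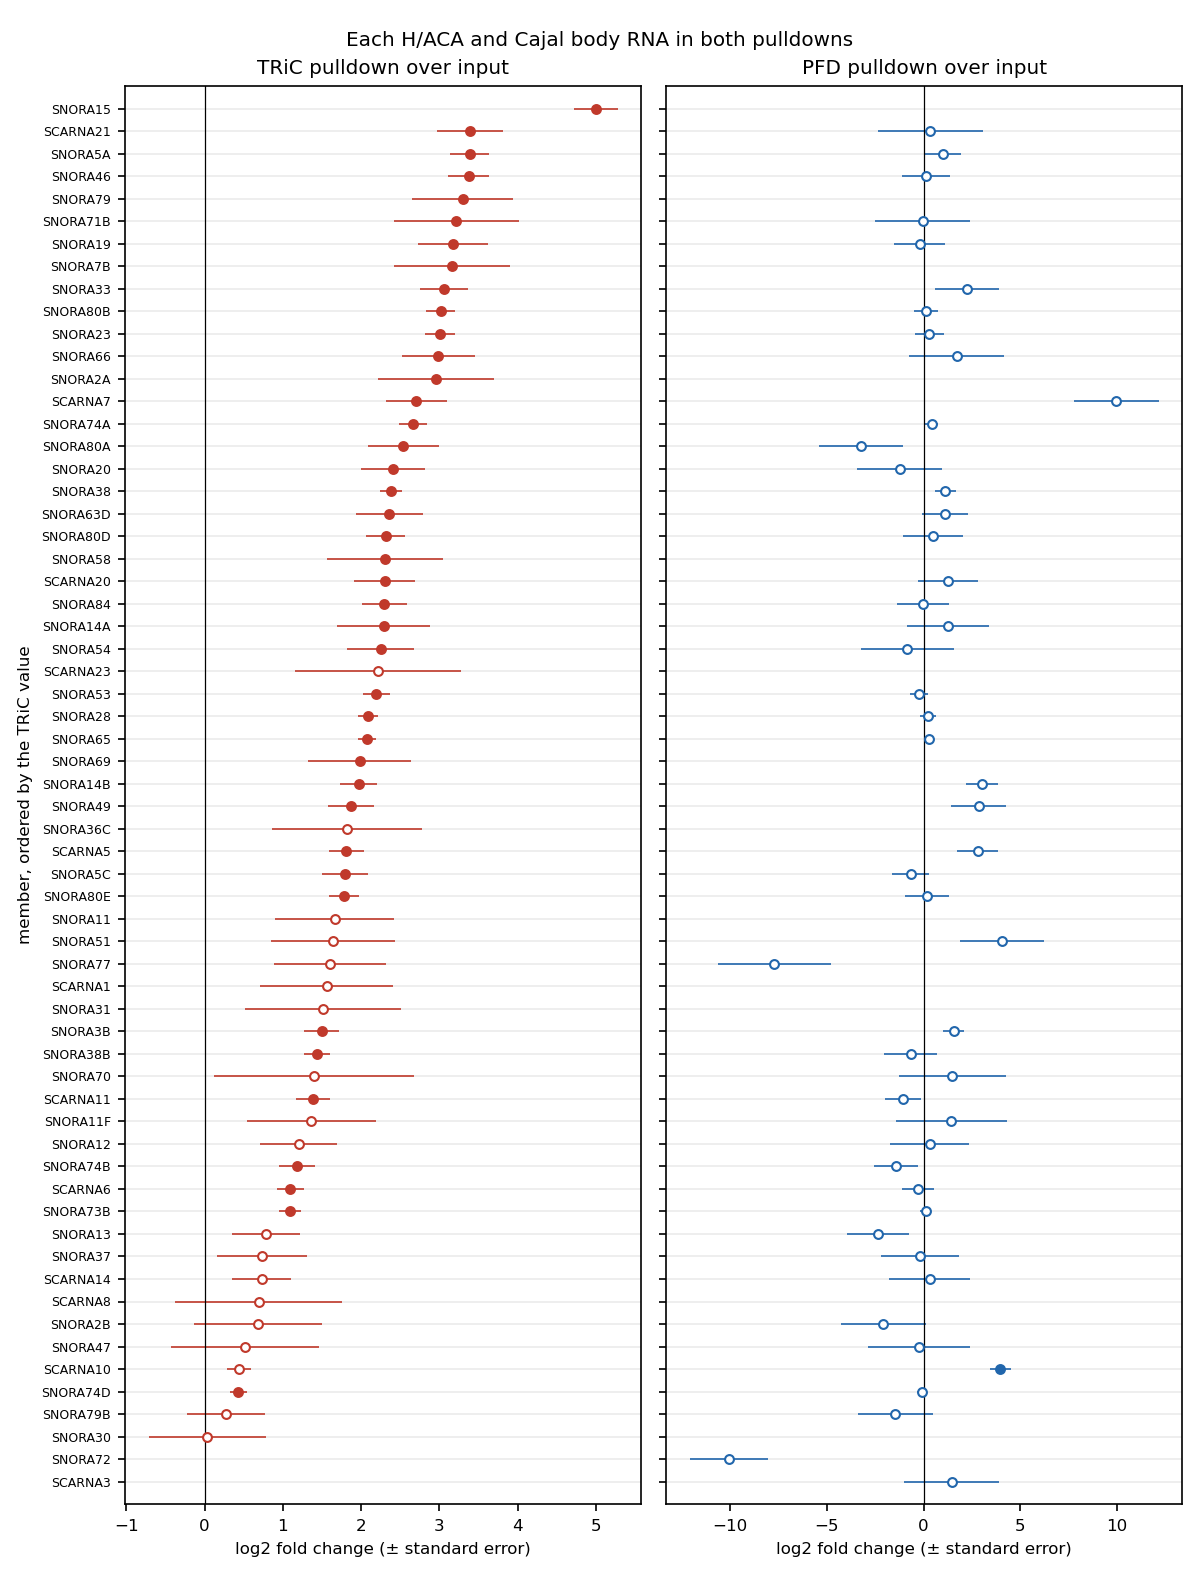
Log2 fold change of pulldown over input with its standard error (bars) for each of the 62 members in the TRiC line (left) and the PFD line (right), ordered by the TRiC value, on axes of different width. Filled points passed an adjusted p of 0.05 by edgeR's quasi-likelihood test (41 of 60 in the TRiC line and 1 of 49 in the PFD line), and a missing point is a member that did not pass the filter on low counts.

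SNORA15 rose most. The TRiC inputs held 11 and 15 counts and the pulldowns 460 and 381, or 0.397 and 0.495 CPM against 13.8 and 15.1 CPM (here and below, counts scaled by library size and TMM factor). On the log2 scale the rise was 5.00 (standard error 0.28, adjusted p = 1.13e-09 by edgeR's quasi-likelihood test). Only 17.9% of its 28-base windows occur once in the genome, the lowest share of any member, so a large part of its length could not be counted from unique alignments of fragments of that size. SNORA15 was not tested in the PFD line, where the inputs held 11 and 0 counts and the pulldowns 0 and 1.

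The other members named by the rule for the highest called values lay between 3.22 and 3.39. SCARNA21 held 22 and 9 counts in the TRiC inputs, SNORA79 6 and 6, and SNORA71B 5 and 4. These members could pass the filter through the pulldowns, so their sizes are description only and not a ranking. SCARNA21 stood at 0.794 and 0.297 CPM in the TRiC inputs and at 5.16 and 6.28 CPM in the pulldowns (log2 fold change 3.39). SNORA5A went from 1.84 and 1.39 to 13.8 and 20.1 CPM (3.39), and SNORA46 from 1.52 and 1.19 to 11.4 and 16.7 CPM (3.37). For all of these the groups were far apart relative to the difference between replicates. SNORA79 stood at 0.216 and 0.198 against 1.89 and 2.26 CPM (3.30). SNORA71B, at 0.180 and 0.132 against 2.19 and 0.755 CPM (3.22), was the least even of the group and lost its call without TRiC pulldown replicate 1 (log2 fold change 2.23, adjusted p = 0.289 by edgeR).

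Among the most abundant members the rise ran from slight to about that size. SNORA74D stood at 234 and 166 CPM in the TRiC inputs and at 274 and 265 CPM in the pulldowns, so that the nearest libraries of both groups lay closer together than the inputs did. The change was 0.43 on the log2 scale (standard error 0.11, adjusted p = 0.0109 by edgeR). That call was lost with DESeq2 (adjusted p = 0.266) and without TRiC input replicate 2 (log2 fold change 0.19, adjusted p = 0.365 by edgeR). SNORA65 went from 47.2 and 35.6 to 159 and 190 CPM (2.08, standard error 0.12, adjusted p = 1.63e-09 by edgeR). SNORA73B, one of the U17 RNAs, which act in the cleavage of the ribosomal RNA precursor rather than as pseudouridine guides, went from 25.0 and 17.4 to 44.9 and 45.0 CPM (1.09, adjusted p = 6.36e-05 by edgeR).

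SNORA28 rose from 18.4 and 17.2 to 65.5 and 85.6 CPM (log2 fold change 2.08) and SNORA74A from 14.6 and 8.55 to 64.5 and 82.4 CPM (2.67). SNORA23, at 5.27 and 4.00 CPM in the inputs and 30.0 and 44.5 CPM in the pulldowns, had the largest rise of the 12 members with most counts (3.01, standard error 0.19, adjusted p = 8.01e-09 by edgeR). SNORA38, SNORA53, SNORA14B and SNORA38B rose with log2 fold changes of 2.39, 2.20, 1.97 and 1.43. SNORA74B, among the 6 called members with the smallest rise, went from 4.91 and 3.798 to 8.43 and 11.3 CPM (1.18, standard error 0.23, adjusted p = 0.00216 by edgeR). In each of the 12 members with most counts both TRiC pulldowns lay above both TRiC inputs, and only SCARNA10 was not called.

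**Figure D3:**
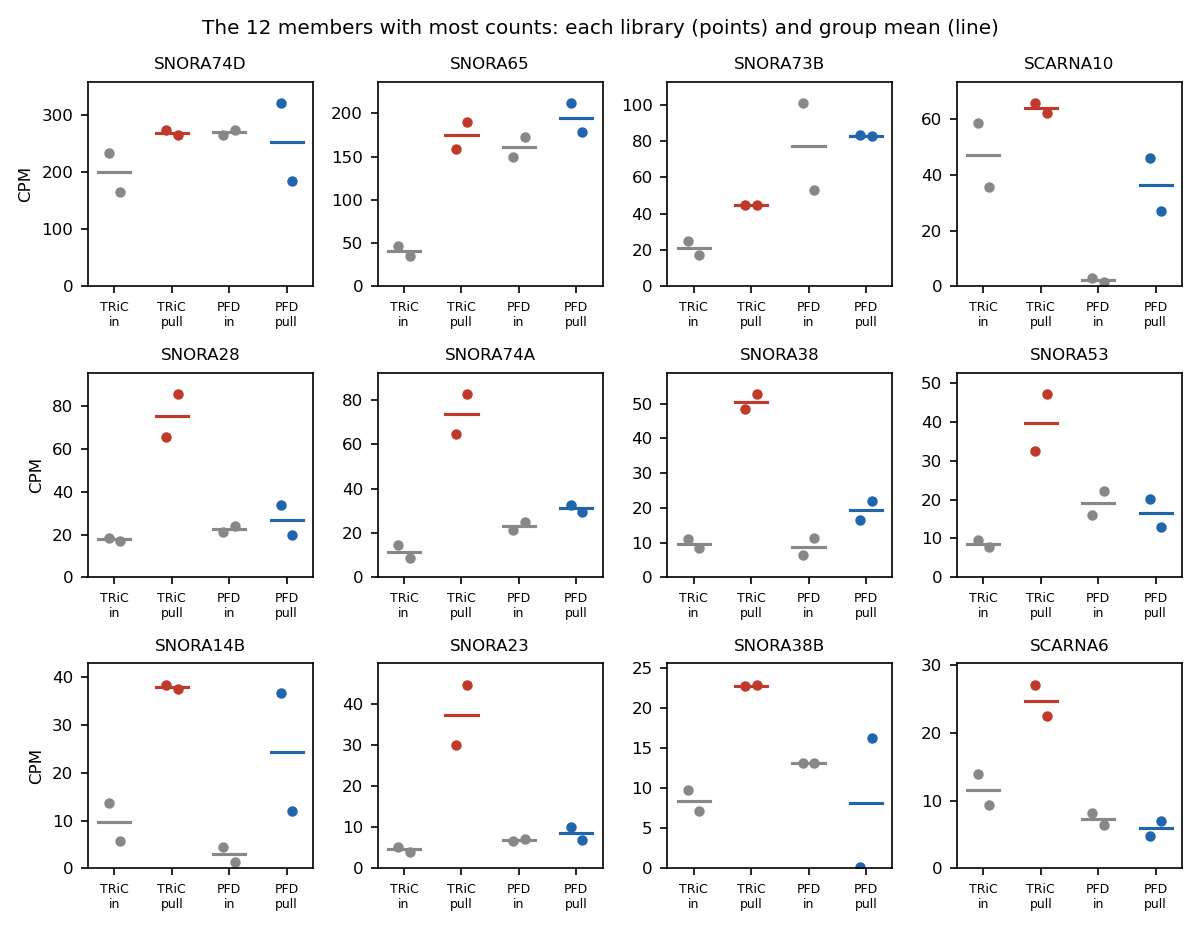
CPM of the 12 members with most counts in each library (points) with the mean of 2 replicates (line), for inputs (grey) and pulldowns of the TRiC line (red) and the PFD line (blue), each line scaled on its own. The TRiC pulldowns lie above the TRiC inputs in every panel, while in the PFD line SCARNA10, at 2.90 and 1.64 against 45.9 and 27.0 CPM, was the 1 member called and SNORA14B, at 4.56 and 1.35 against 36.76 and 12.04 CPM, was not called.

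Of the 11 tested Cajal body members 6 were called higher in the TRiC pulldown. Besides SCARNA21, SCARNA7 went from 0.685 and 0.727 to 4.02 and 5.24 CPM in the TRiC line (log2 fold change 2.703) and SCARNA20 from 0.685 and 1.06 to 4.68 and 3.97 CPM (2.30). SCARNA5 and SCARNA6, both within ATG16L1, rose by 1.81 and 1.09 on the log2 scale, and SCARNA11, within CHD4, by 1.38. SCARNA10 stood at 58.8 and 35.5 CPM in the inputs and at 65.6 and 62.2 CPM in the pulldowns, and its log2 fold change of 0.44 just missed the threshold (adjusted p = 0.0535 by edgeR). It passed without TRiC input replicate 1 (0.85, adjusted p = 5.39e-06 by edgeR), without TRiC pulldown replicate 1 (0.39, adjusted p = 0.00363) and without TRiC pulldown replicate 2 (0.49, adjusted p = 0.00025), but not without TRiC input replicate 2 (0.11, adjusted p = 0.743). It also passed with library totals (adjusted p = 0.0161 by edgeR), without a filter on low counts (adjusted p = 0.000885) and with at least 10 counts in every library (adjusted p = 0.0144). SCARNA14, at 2.74 and 2.21 against 5.73 and 2.42 CPM, was not called either (0.73, adjusted p = 0.190 by edgeR), and its value without TRiC pulldown replicate 1 was -0.04, whereas without TRiC pulldown replicate 2 it passed (1.22, adjusted p = 0.00334). SCARNA23, with 1, 6, 18 and 15 counts, had a log2 fold change of 2.21 with a standard error of 1.06.

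In the PFD pulldown 1 of 49 tested members, SCARNA10, was called higher by edgeR's quasi-likelihood test (2.04%, against 0.0496% of all 14111 genes tested), and none was called lower (against 0.191%). At an unadjusted p under 0.05 there were 7 members, 5 of them higher, or 14.3% against 6.93% of all genes. DESeq2 called 4 members higher and 1 lower. The median log2 fold change was 0.24, beside -0.0005 for all genes tested, and 29 of the 49 members (59.2%) lay above 0, beside 49.9% of all genes. Both PFD pulldowns exceeded both inputs for 13 members (26.5%, against 18.3% of all genes) and lay below both for 7 (14.3%, against 20.4%). The medians of the SNORD and small nuclear RNA genes were -0.92 and -1.49 in this pulldown. The calls moved with single libraries: without PFD pulldown replicate 1 there were 2 higher and 4 lower members, without PFD pulldown replicate 2 there were 4 and 2, and without PFD input replicate 1 there were 2 and 0.

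SCARNA10 (ENSG00000239002, chr12:6510222-6510551, plus strand, within NCAPD2) held 56 and 17 counts in the PFD inputs but 426 and 769 after pulldown. On the log2 scale the rise was 3.97 (standard error 0.55, adjusted p = 0.0442 by edgeR), with both pulldowns far above both inputs. The PFD inputs were the low group: with all 8 libraries scaled together SCARNA10 stood at 58.2 and 35.2 CPM in the TRiC inputs and at 2.98 and 1.64 CPM in the PFD inputs. Tested against a 1.5-fold change, the adjusted p was 0.0629. An exon of the long non-coding RNA gene ENSG00000276232 lies over 75.2% of its bases on the same strand in GENCODE release 44. SCARNA10 was left out of the fit without such genes, in which no member was called.

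Several other members moved in the PFD line without passing the test. SCARNA7 had 0 counts in both PFD inputs and 103 and 104 in the pulldowns, at least 33.2-fold higher when each input is set to a floor of 3 counts (adjusted p = 0.403 by edgeR's quasi-likelihood test). SNORA14B went from 4.56 and 1.35 to 36.76 and 12.04 CPM (log2 fold change 3.01, adjusted p = 0.582) and SCARNA5 from 2.07 and 1.74 to 3.45 and 22.98 CPM (2.79, adjusted p = 0.706 by edgeR). In SCARNA5 most of the rise came from 1 pulldown. SNORA14B passed without PFD input replicate 1 (4.15, adjusted p = 0.0368) and without PFD pulldown replicate 2 (3.57, adjusted p = 2.23e-06). It also passed with DESeq2 (adjusted p = 0.0018) and without a filter on low counts (adjusted p = 0.00427 by edgeR). SCARNA7 passed with DESeq2 (adjusted p = 9.23e-05) and without PFD pulldown replicate 2 (10.17, adjusted p = 3.66e-05) and SCARNA5 without PFD pulldown replicate 1 (3.58, adjusted p = 1.34e-07).

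SNORA72 went the other way, with 101 and 109 counts in the PFD inputs, 0 in both PFD pulldowns and 0 in all TRiC libraries. That is at least 36.7-fold lower in the PFD pulldowns against the same floor (adjusted p = 0.312 by edgeR). All of its bases lie under an exon of RPL30-AS1 on the opposite strand. SNORA77 went from 31 and 15 counts in the PFD inputs to 0 in both pulldowns, at least 7.12-fold lower (adjusted p = 0.710 by edgeR). SNORA72 and SNORA77 fall outside the rule for named members and were picked once their values were known.

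No other abundant member was called in the PFD line. SNORA65 stood at 150 and 172 CPM in the inputs and at 211 and 179 CPM in the pulldowns (log2 fold change 0.28, standard error 0.15). SNORA74D stood at 266 and 274 against 321 and 184 CPM (-0.10), with 1 pulldown above and the other below the inputs. Without PFD pulldown replicate 1 it passed the test with a log2 fold change of -0.55 (adjusted p = 0.00242 by edgeR). SNORA73B stood at 101 and 53.3 against 83.4 and 82.6 CPM (0.11), SNORA28 at 21.4 and 23.9 against 33.9 and 19.8 CPM (0.24), and SNORA74A at 21.5 and 25.0 against 32.7 and 29.4 CPM (0.42). SNORA38 stood higher in both pulldowns, at 6.33 and 11.4 against 16.5 and 22.0 CPM, without being called (1.13, adjusted p = 0.755 by edgeR). SNORA74B, at 5.34 and 6.36 against 1.94 and 2.39 CPM, stood lower in both, again without a call (-1.43, adjusted p = 0.898 by edgeR). SNORA38B was nearly absent from 1 library, with 0.108 and 16.3 CPM in the pulldowns beside 13.2 CPM in both inputs, and it passed without PFD pulldown replicate 2 (-6.82, adjusted p = 9.83e-06 by edgeR).

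The inputs of the lines differed as well, and their part in the contrast between the lines was not tested. With all 8 libraries scaled together, SNORA65 stood at 46.7 and 35.2 CPM in the TRiC inputs and at 153 and 173 CPM in the PFD inputs, and SNORA73B at 24.7 and 17.3 against 103 and 53.4 CPM. Both PFD inputs exceeded both TRiC inputs for 26 of 61 members (42.6%, against 28.2% of all genes) and lay below both for 12 (19.7%, against 43.5%). The lines differ in tagged gene and clone and were deposited as separate tables, so line and batch cannot be told apart in this comparison.

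Whether a member rose more in the TRiC line than in the PFD line was asked by an interaction term over all 8 libraries, and no member passed. None of 61 tested members was called in either direction by edgeR's quasi-likelihood test, against 0.0212% of all 18855 genes with a larger rise in the TRiC line and 0.0159% with a larger rise in the PFD line. At an unadjusted p under 0.05 there were 23 members (37.7%, against 14.8% of all genes), of which 21 had the larger rise in the TRiC line, and DESeq2 called 16 members with a larger rise in the TRiC line and 2 with a larger rise in the PFD line. SNORA65 came nearest to the threshold, with a difference of 1.82 on the log2 scale (standard error 0.23, adjusted p = 0.0744 by edgeR), followed by SCARNA10 with -3.47 (standard error 0.51, adjusted p = 0.105 by edgeR). The count moved with the PFD pulldown libraries: without PFD pulldown replicate 1 there were 17 members with a larger rise in the TRiC line and 2 with a larger rise in the PFD line, without PFD pulldown replicate 2 there were 23 and 3, and without TRiC input replicate 1 there were 1 and 0.

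The genes that house the members mostly did not rise in the TRiC pulldown. A gene on the same strand encloses 60 of the 62 members, 56 distinct hosts in all. Where several genes enclosed a member, the one with most summed counts was taken as its host. SNORA74D, for example, lies within 2 such genes. Which enclosing transcript yields a member was not tested. In the TRiC line 54 of these hosts were tested, 3 were called higher and 10 lower by edgeR's quasi-likelihood test (against 8.64% and 10.6% of all genes), and their median log2 fold change was -0.11. The member lay above its host in 54 of 56 tested pairs, with a median difference of 2.10 on the log2 scale. These pairs include members with few input counts, which could pass the filter through the pulldowns. The member lay above its host in 25 of 46 pairs of the PFD line, with a median difference of 0.13, and no host was called by edgeR, with 1 higher and 2 lower at an unadjusted p under 0.05 and 0 higher and 2 lower by DESeq2. SNORA65 stood at 2.08 beside -0.37 for RPL12 in the TRiC line, SNORA23 at 3.01 beside 0.00 for the importin gene IPO7, and SNORA28 at 2.08 beside -0.13 for the translation factor gene EIF5.

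SNORA15 and SNORA20 are housed by genes of the tagged complex itself. CCT6A held 13167 and 15276 counts in the TRiC inputs against 14773 and 11041 after pulldown (log2 fold change -0.15, adjusted p = 0.128 by edgeR), beside 5.00 for SNORA15. TCP1 held 7776 and 9160 counts against 8553 and 6226 (-0.21, adjusted p = 0.0530 by edgeR). SNORA20, named here for its host after its values were seen, went from 1.05 and 0.594 to 3.78 and 4.93 CPM (2.41, standard error 0.41, adjusted p = 0.000669 by edgeR). Its bases are covered to 9.1% by an exon of TCP1.

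The hosts MATR3, ATG16L1, TBRG4 and KANSL2 hold 2 members each. SNORA74D and SNORA74A lie next to each other in an annotated MATR3 gene and rose by 0.43 and 2.67 on the log2 scale in the TRiC pulldown. That MATR3 gene shares most of its exon bases with another gene of the same name and held only 12 to 34 counts per TRiC library, so its own value (0.80, adjusted p = 0.533 by edgeR) rests on few counts, and SNORA74D was 1 of the 2 members below their host. The other was SNORA79B (0.28), beside 0.53 for CCNB1IP1. SCARNA5 and SCARNA6, both in ATG16L1, rose by 1.81 and 1.09. SNORA5A and SNORA5C, both in TBRG4, rose by 3.39 and 1.80. SNORA2A and SNORA2B, both in KANSL2, had values of 2.96 (called) and 0.68 (not called). SNORA2A held 6 and 5 counts in the TRiC inputs, so it could pass the filter through the pulldowns. The differences within these pairs were not tested.

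Some members are close in sequence. SNORA80A, SNORA80B, SNORA80D and SNORA80E share between 75.2% and 91.9% of their bases pairwise and rose by 2.54, 3.02, 2.31 and 1.78 on the log2 scale in the TRiC line. SNORA38 and SNORA38B, 84.8% identical, rose by 2.39 and 1.43. SNORA14A and SNORA14B, 91.1% identical, rose by 2.29 and 1.97. SNORA11 and SNORA11F, 86.7% identical, had values of 1.66 and 1.36, and neither was called. SNORA30 and SNORA37, 86.0% identical, had values of 0.04 and 0.74, again without a call. Where copies are this alike, the division of reads between them depends on the bases that differ.

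The proteins of the H/ACA pathway were read from a list of 22 genes, and none was called higher in either line. The shares of all genes called higher were 8.64% in the TRiC line and 0.0496% in the PFD line. With a share that small, the lack of calls in the PFD line says nothing particular about these genes. In the TRiC line 21 were tested, none was higher, also at an unadjusted p under 0.05 and by DESeq2, and 5 were lower by edgeR's quasi-likelihood test (against 10.6% of all genes), with a median log2 fold change of -0.21. The 5 were the core proteins NHP2 (-0.51, adjusted p = 0.00297) and NOP10 (-0.50, adjusted p = 0.00225), the assembly ATPases RUVBL1 (-0.29, adjusted p = 0.0292) and RUVBL2 (-0.41, adjusted p = 0.00208), and the 3′ exonuclease TOE1 (-0.32, adjusted p = 0.0449 by edgeR). The pseudouridine synthase DKC1 stood at 126 and 124 CPM in the TRiC inputs and 111 and 104 CPM in the pulldowns (-0.22, adjusted p = 0.0736 by edgeR) and GAR1 had -0.19. The Cajal body proteins COIL and WRAP53 had -0.32 and -0.21 without being called. None of 19 tested genes was called by edgeR in the PFD line, where the median was -0.01, while 2 were higher and 2 lower at an unadjusted p under 0.05 and DESeq2 called 2 higher. At that unadjusted p the higher genes were WRAP53 (0.99) and NOP53 (0.75), a factor of RNA turnover. The lower genes were NHP2 (-0.55) and TOE1 (-0.63). Both PFD pulldowns stood above both inputs for WRAP53 and NOP53, and also for SHQ1, RUVBL1, NOLC1 and TCOF1. They lay below both inputs for NHP2, TOE1 and NAF1. Over all genes tested 18.3% stood above and 20.4% below in this way. TERC, the telomerase RNA with an H/ACA domain, had no count in any library, and TERT had 4, 1, 12 and 14 counts in the TRiC line (2.33, adjusted p = 0.169 by edgeR). With so few input counts TERT could pass the filter through the pulldowns, so the size of its value is description only.

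Overlapping exons and repeated sequence bear on how reads are assigned to a member, and their part in the counts was not tested. Of the 138 genes of these names without a count, 69 lie wholly under a same-strand exon of another gene in GENCODE release 44, against 1 of the 62 members, SNORA13, which held counts in every library and 612 in all. In all 28-base windows 39 members were unique in the genome, and 27 of the 38 of them that were tested were called higher in the TRiC line, beside 14 of 22 members with repeated windows. Of the members with no exon of another gene over them 37 of 52 were called higher, with a median log2 fold change of 2.02, beside 4 of 8 members under such an exon, with a median of 1.81. Of the genes without a count, 31 had neither an exon over them nor repeated windows.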

How the data were processed

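Selective ribosome profiling libraries of U-2 OS cells (4 groups of 2 replicates, grouped by the labels) were analysed. The authors deposited raw counts per gene and library, a table for each line, without normalization. Per the study's methods, UMIs were extracted with UMI-tools, reads matching a non-coding RNA library that included ribosomal RNA were removed with Bowtie2 (2.4.2), and the rest were aligned uniquely to hg38 and counted with STAR (2.7.10a); versions follow the submitters' processing notes. Which small RNAs that library held, the annotation release and the strand column are not given in the sources used here, so members are the reads that passed this removal. Identifiers were named through GENCODE release 44 (60463 of 60664 matched). No sample column was left out.

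Pulldown and input were compared within each line in R 4.3.3 with edgeR 4.0.16 (TMM, filterByExpr, quasi-likelihood test, no replicate block, Benjamini-Hochberg over all genes tested, adjusted p under 0.05), and the difference between lines as an interaction over all 8 libraries. Calls, shares and lower bounds use the counts as deposited, with a floor of 3 counts per library, and exact intervals cover counting error only. The fits were tested on simulated data. The alternatives were DESeq2 1.42.0, a replicate block, library totals, other filters, glmTreat against 1.5-fold, all 8 libraries in 1 fit, omission of overlapped genes and leaving out each library. The paper's methods give no gene-level test. The main fit used no pairing, and the labels do not say whether same-numbered libraries share a ribosome pellet. Their deviations correlated at 0.0798 in the TRiC and -0.0043 in the PFD line over all genes tested, which cannot exclude such pairing. Results with a replicate block are given below.

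Named members were the 12 with most counts, the 6 called members of each pulldown with the highest and the 6 with the lowest log2 fold change, given a mean of at least 20 counts and the same direction in both same-numbered pairs, SCARNA members with a mean of at least 50 counts, the pathway list and the genes nearest to the limit. The members, lists and rules were chosen with earlier results of these data known. Members outside these rules are given with values where a comparison of hosts or similar sequences needed them, chosen after their values were seen. The sequences of some members are not reported here.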

Additional observations from a re-analysis of the deposited data

How the results depend on the processing

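The TRiC result rests on the fit of its own 4 libraries: 32 to 43 members were called higher and none lower under the other alternatives, but 5 with all 8 libraries in 1 fit. The median of the members lay between 1.92 and 2.31 when a library was left out. Without the most abundant member the ratio of shares in the TRiC line was 3.71.

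In the PFD line the members called higher numbered 4 with DESeq2, 2 without a filter on low counts, 0 with glmTreat and 0 without genes under exons of other genes, and 1 to 4 when a library was left out. Those called lower numbered 1 with DESeq2, 1 without a filter and 0 to 4 when a library was left out. The median of the members was 0.30 with DESeq2, 0.20 with library totals, 0.28 without a filter and 0.25 to 0.40 when a library was left out. For the difference between the lines, members with the larger TRiC rise numbered 16 with DESeq2, 1 with library totals, 7 without a filter, 1 with at least 10 counts in every library and 0 to 23 when a library was left out. Those with the larger PFD rise numbered 2, 1 without a filter, 1 with at least 10 counts and 0 to 3. The cause was not tested.

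With the replicate block, which pairs same-numbered libraries, 42 members were higher in the TRiC line. In the PFD line 2 were higher and 1 lower (median 0.18), and none was called for the difference. The block also brought SCARNA10 past the threshold in the TRiC line (0.47, adjusted p = 0.00114 by edgeR) and SNORA14B in the PFD line (3.07, adjusted p = 0.0031). For named PFD values the block gave -0.044 for SNORA46 and -1.81 for SCARNA14.

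When a library was left out, log2 fold changes that crossed 0 ran from -0.04 to 1.22 for SCARNA14 in the TRiC line. In the PFD line they ran from -0.55 to 0.25 for SNORA74D, -0.29 to 0.63 for SNORA73B, -0.20 to 0.58 for SNORA28, -0.57 to 0.067 for SNORA53 and -0.017 to 0.55 for SNORA23. Further PFD ranges were -6.82 to 0.30 for SNORA38B, -6.23 to 7.12 for SCARNA21, -0.84 to 0.69 for SNORA46, -7.08 to 0.98 for SNORA71B and -7.57 to 1.29 for SCARNA14. The difference for SNORA14B ran from -2.19 to 0.027. Leaving out a library leaves an arm with a lone sample, which is assumed to vary like the other groups. The PFD libraries limit the precision, with 9523128 counts in the shallowest and 23 members at 0 there.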
